A study of Mus musculus with 18 samples.

Results

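The Cyp2c genes of the mouse encode a subfamily of cytochrome P450 enzymes, and 9 of them were followed in the livers of newborn mice: Cyp2c29, Cyp2c37, Cyp2c38, Cyp2c39, Cyp2c50, Cyp2c54, Cyp2c55, Cyp2c68 and Cyp2c70. They are 9 of the 31165 genes in the deposited table, found by symbol, and the table lists 4 more genes of the subfamily (Cyp2c40, Cyp2c44, Cyp2c67 and Cyp2c69), which are given for comparison. The 9 genes were chosen by values of these same livers, among them low Cyp2c54 at P14 and low Cyp2c55 at P5 in livers given the mimic, so both of those mimic comparisons are described here with no p. Which other values set them apart from the remaining 4 genes is unknown here. All mice were C57BL/6J pups injected intraperitoneally on postnatal days 1 and 3, either with a chemically stabilised mimic of miR-497a-5p, a microRNA, or with an inert scrambled mimic. Pups were killed at P5, P7 or P14 (postnatal day 5, 7 or 14, counting the day of birth as day 1) and the liver was taken, which gave 6 groups of 3 libraries, 18 in all: mimic and scrambled at each day. Doses of 10 and 100 mg per kg appear in the protocol, and no dose is given for a single library. Litters are not labelled either, so the p-values measure the spread between these livers.

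Enzymes of this subfamily sit in the membrane of the endoplasmic reticulum, take electrons from P450 oxidoreductase (Por) and add oxygen to fatty acids, steroids, retinoids and drugs. Several turn arachidonic acid into epoxides or hydroxylated acids that act as lipid signals, and the liver is the organ best known for them. In rodents many are low at birth and come on during postnatal life, under nuclear receptors such as CAR (Nr1i3) and HNF4A (Hnf4a) and under growth hormone. Expression in the adult liver lies mostly in hepatocytes, with some members strongest around the central vein.

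Values are scaled counts, which are whole-number gene counts that the authors divided by a factor per library. They summed to 3954405 to 4248257 per library, from an estimated 3006600 to 5319600 reads assigned to genes. Every one of 6 hepatocyte markers was above 0 in all libraries, with Alb at 2086 ± 279 (SD, n = 18). Libraries differed in how values ran with transcript length: the rank correlation was 0.053 to 0.485 in the P7 libraries, -0.352 to 0.197 at P5 and -0.241 to 0.016 at P14. Transcripts of other organs appeared in the P7 scrambled libraries. The sum of 4 muscle markers was 1191 in P7 scrambled replicate 1, 18 in replicate 2 and 328 in replicate 3, and at most 16 in every other library. The gut gene Sis stood at 2 and 21 in P7 scrambled replicates 2 and 3, and was 0 in the other 16 libraries. P5 mimic replicate 3 and P7 scrambled replicate 3 carried both Xist (1568 and 1484), the transcript of the silent X chromosome of females, and Y-linked Ddx3y (60 and 45), where no other library with Xist above 66 had more than 8 of Ddx3y. In bulk liver, fewer hepatocytes and less RNA per hepatocyte cannot be told apart.

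Of the 13 genes, 12 lie in one cluster on chromosome 19 (mm10, chr19:39007019-40187286, 1180 kb), and Cyp2c44 lies 3.82 Mb further on. Along the chromosome the order is Cyp2c55, Cyp2c29, Cyp2c38, Cyp2c39, Cyp2c67, Cyp2c68, Cyp2c40, Cyp2c69, Cyp2c37, Cyp2c54, Cyp2c50 and Cyp2c70, with 5 genes on the plus and 7 on the minus strand. Coding sequences fall into close groups. Cyp2c37, Cyp2c50 and Cyp2c54 are 95.1% to 96.1% identical to each other. Cyp2c68 is 98.1% identical to Cyp2c40, its closest relative, and is grouped with Cyp2c67 and Cyp2c69 as well. Cyp2c38 and Cyp2c39 are 94.2% identical, and Cyp2c29 is 89.1% and 89.5% identical to them. Cyp2c55 and Cyp2c70 stand alone, at 77.5% and 70.3% to their closest relatives.

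Such likeness limits how reads can be assigned. Of all 50-base windows of the transcript, the share found in no other Cyp2c transcript was 74.3% for Cyp2c54, 69.9% for Cyp2c37, 69.3% for Cyp2c50 and 56.7% for Cyp2c68. It was 88.6% for Cyp2c39, 92.6% for Cyp2c38, 97.9% for Cyp2c29, 99.5% for Cyp2c55 and 100% for Cyp2c70. Values of these first 4 genes are less certain than those of the others, since the sources used here do not say how reads that match several places were counted. The stretch from coding base 847 to 906 shows where Cyp2c54, the gene with the largest mimic difference below, can be told from its relatives, and capitals mark the 9 of 60 bases that differ among the 3 genes:
Cyp2c54: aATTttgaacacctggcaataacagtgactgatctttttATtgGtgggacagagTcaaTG
Cyp2c50: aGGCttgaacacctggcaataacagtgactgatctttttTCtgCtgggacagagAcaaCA
Cyp2c37: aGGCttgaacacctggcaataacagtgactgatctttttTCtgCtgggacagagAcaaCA
In this window Cyp2c50 and Cyp2c37 are the same and all 9 differences belong to Cyp2c54. Over the full coding sequence of 1473 bases, 44 bases are its own, and the longest run shared by all 3 genes is 89 bases.

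The microRNA is 22 bases long in RefSeq (GRCm38.p6, chr11:70234730-70234751, plus strand), and its seed, bases 2 to 8, is in capitals:
miR-497a-5p: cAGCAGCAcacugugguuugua
The 7-base match to this seed, TGCTGCT, was searched on the transcript strand of the annotated 3′ UTRs. It occurs in 0 of the 9 genes, whose 3′ UTRs are 223 to 1375 bases long, against 21.7% of 18783 genes with an annotated 3′ UTR and 12.9% of the 8633 genes with one of that length range.

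Cyp2c29, Cyp2c38 and Cyp2c39 are close in coding sequence and far apart in level, so their RefSeq promoters (GRCm38.p6, 250 bases before to 50 after the start site) are shown, with TATAAA in capitals. Cyp2c29 is at chr19:39286835-39287134 on the plus strand, inside the span that the table gives the gene. Cyp2c38 is at chr19:39463026-39463325 on the minus strand, and Cyp2c39 is at chr19:39510572-39510871 on the plus strand:
Cyp2c29: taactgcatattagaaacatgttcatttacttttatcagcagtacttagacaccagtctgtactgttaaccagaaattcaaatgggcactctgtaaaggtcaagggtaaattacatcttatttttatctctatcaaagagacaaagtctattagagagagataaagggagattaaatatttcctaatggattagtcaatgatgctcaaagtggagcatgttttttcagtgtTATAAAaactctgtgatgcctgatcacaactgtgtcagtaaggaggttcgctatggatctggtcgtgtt
Cyp2c38: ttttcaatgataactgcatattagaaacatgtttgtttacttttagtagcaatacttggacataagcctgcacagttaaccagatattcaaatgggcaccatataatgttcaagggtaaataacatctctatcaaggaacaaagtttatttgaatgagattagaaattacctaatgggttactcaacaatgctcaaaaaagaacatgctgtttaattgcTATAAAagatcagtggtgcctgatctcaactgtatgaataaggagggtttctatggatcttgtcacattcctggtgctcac
Cyp2c39: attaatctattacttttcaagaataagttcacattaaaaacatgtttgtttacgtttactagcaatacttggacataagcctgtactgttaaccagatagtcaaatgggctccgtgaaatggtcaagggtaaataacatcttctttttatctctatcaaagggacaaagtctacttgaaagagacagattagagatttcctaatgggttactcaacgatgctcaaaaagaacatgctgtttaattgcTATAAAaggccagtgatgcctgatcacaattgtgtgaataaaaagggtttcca
RefSeq gives Cyp2c39 a second entry, at chr19:39347096-39347395 and outside the span of the gene in the table, which holds no TATAAA and is not shown. The 3 promoters shown hold TATAAA, at -19, -31 and -3 from the annotated start, and so do 13.6% of 32851 mouse promoters of this length, both strands searched. The HNF4A-type motif CAAAGTCCA, on either strand, is in the promoters of Cyp2c68 and Cyp2c70 (at -77 and -64) and of Cyp2c67, Cyp2c40 and Cyp2c69, against 0.475% of all promoters. Promoters of Cyp2c29, Cyp2c37, Cyp2c38, Cyp2c39, Cyp2c50 and Cyp2c55 do not hold these letters in the window. Cyp2c67, Cyp2c68, Cyp2c40 and Cyp2c69 are close relatives, so their matches may not be independent, and no excess over all promoters is read from them. Patterns of HNF1, of C/EBP and of spaced repeats (DR1 and DR4) were searched too and matched none of these promoters. A looser C/EBP pattern was in those of Cyp2c37, Cyp2c67, Cyp2c40 and Cyp2c69, against 10.8% of all promoters.

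Levels of different genes are set side by side per length, as scaled counts per kb of the transcript with the longest coding sequence. On their longest transcripts Alb, Apoa1 and Ttr had means of 1026, 857 and 742 per kb over the 18 libraries. Cyp2c70 had 714 and 717 per kb in mimic and scrambled livers at P14. Whether high levels were flattened was not tested, so ranks and folds among the highest genes are uncertain. The plot along the cluster gives the levels of the clustered genes by day. At P5, Cyp2c70 led the 9 genes in both groups, with 398 ± 17.5 per kb in mimic and 440 ± 98.9 per kb in scrambled livers (SD, n = 3 each). Cyp2c68 and Cyp2c37 came next, at 341 and 309 per kb in mimic and 375 and 352 per kb in scrambled livers, and these neighbours overlapped within each group. Cyp2c29 and Cyp2c55 were low at P5, at 6.36 and 3.01 per kb in mimic and 9.35 and 14.0 per kb in scrambled livers. By P14 Cyp2c29 had moved to second place, with 474 ± 43.4 per kb in mimic and 579 ± 64.6 per kb in scrambled livers, and it overlapped with the third, Cyp2c37, in both groups. Cyp2c54 stood at 16.8 to 24.6 per kb in mimic and 71.7 to 111 per kb in scrambled livers at P14. The length matters for Cyp2c29: its mean over the 18 libraries was 188 per kb on this transcript and 119 on its longest one. Cyp2c50 likewise had 177 per kb, against 110 over its merged exons. Cyp2c70 was lower per kb over its merged exons too, so its place at the top is given for this transcript only.

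**Figure D1:**
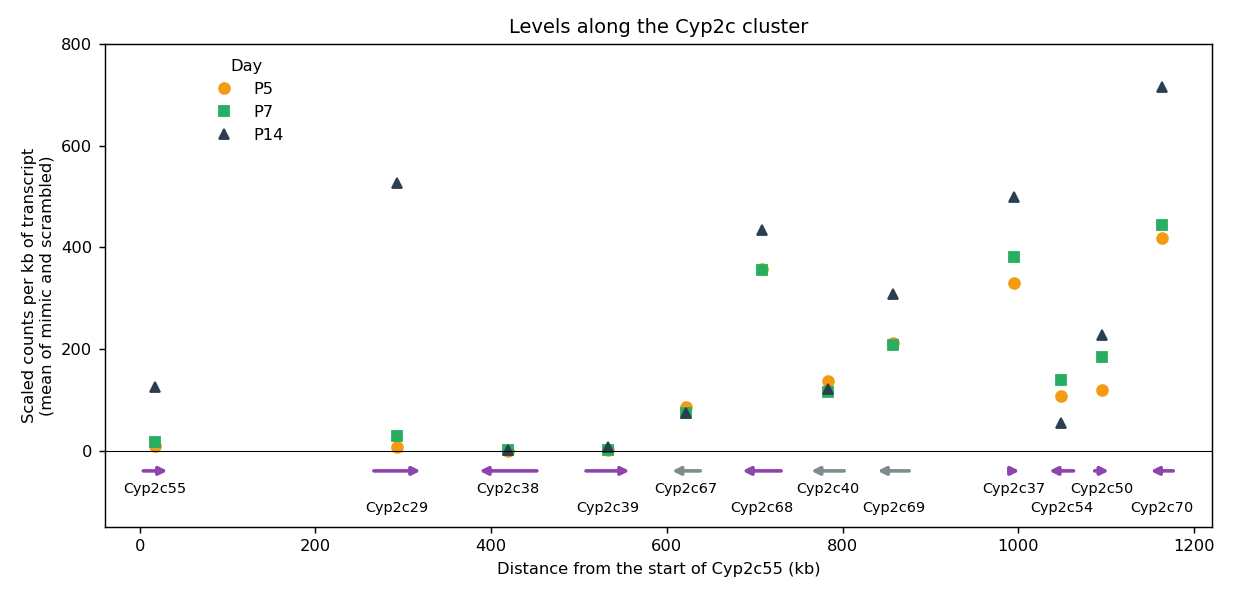
Scaled counts per kb of transcript (vertical axis) for the 12 clustered genes at their distance in kb from the start of Cyp2c55 (horizontal axis), as the mean of the mimic and scrambled group means at P5 (circles), P7 (squares) and P14 (triangles). Arrows give position and strand, purple for the 9 genes followed here and grey for the other 3. Cyp2c29 is near the bottom at P5 and P7 and second highest at P14, while Cyp2c54 is lowest of its 3 points at P14.

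As the livers matured, Cyp2c29 and Cyp2c55 rose most. Cyp2c54 was lower at P14, mainly in the mimic livers by which it was chosen, and its difference did not pass in scrambled livers. The age comparisons used limma on log2(value + 1) over 14104 genes with a mean of 10 or more, averaged over both injections, with Benjamini-Hochberg adjustment and a threshold of 0.05. Of the 9 genes 7 were tested. Cyp2c38 and Cyp2c39 missed the mean of 10, and Cyp2c29 and Cyp2c55 owe most of their mean to P14. Between P7 and P14, 5 of the 7 rose (Cyp2c29, Cyp2c37, Cyp2c55, Cyp2c68 and Cyp2c70), 1 fell (Cyp2c54, which did not pass in scrambled livers alone) and Cyp2c50 did not pass. Of all genes tested 50.3% passed in that comparison, 24% higher and 26.3% lower. Between P5 and P7, 4 of the 7 rose (Cyp2c29, Cyp2c37, Cyp2c50 and Cyp2c55), where 26.9% of all genes passed and 13.7% passed higher. Taken apart by injection, 3 of the 7 passed in mimic livers and 0 in scrambled livers, where 10% and 0% of all genes passed. Their median log2 differences were 0.86 and 0.04. The Cyp2c55 difference from P5 to P7 includes the low P5 mimic values by which the gene was chosen. The median log2 difference of the 7 genes was 0.39 from P7 to P14 and 0.44 from P5 to P7, beside 0.01 and -0.02 over all genes tested. Markers of red cell precursors moved over the same days: the 4 markers, all above 0 in every library, summed to 1646 to 2391 at P7 and to 630 to 1143 at P14. The 6 hepatocyte markers summed to 10771 to 15064 at P7 and to 11163 to 15067 at P14. The part of these cell types in the age differences was not tested.

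**Figure D2:**
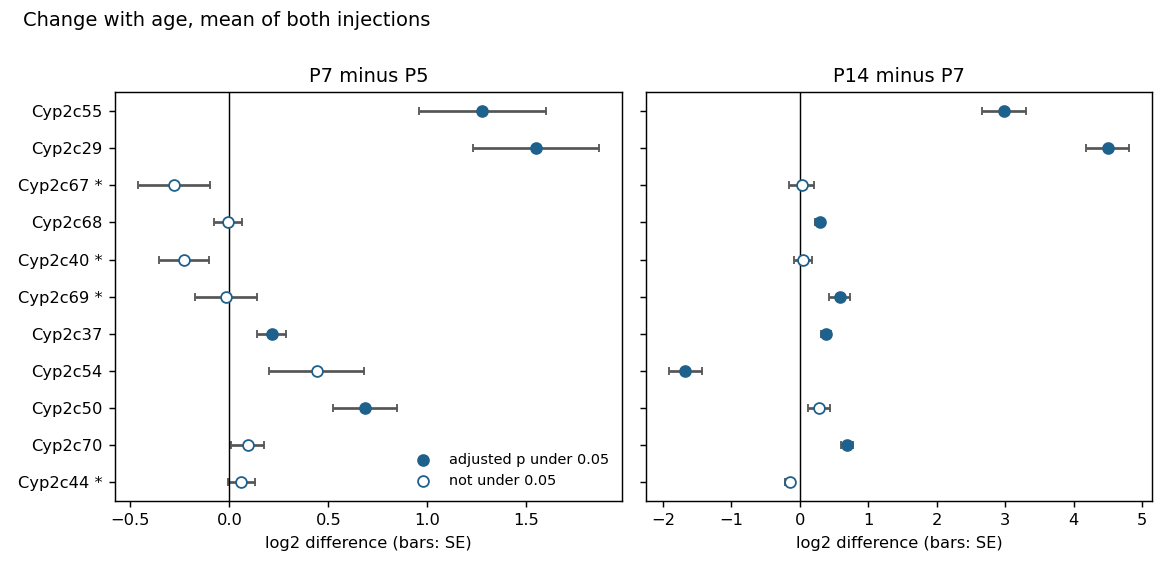
Log2 difference with age on the log2(scaled count + 1) scale (horizontal axes, bars give the SE) for the 11 tested Cyp2c genes in chromosome order (asterisks: the 4 genes outside the 9), from P5 to P7 on the left and from P7 to P14 on the right, over 6 livers a day. Filled points passed an adjusted p of 0.05. Cyp2c29 and Cyp2c55 lie far to the right at P14 minus P7, at 4.50 and 2.99, and Cyp2c54 lies at -1.68. The points of Cyp2c54 from P7 to P14 and of Cyp2c55 from P5 to P7 include the low mimic values by which these genes were chosen.

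One limit bears mainly on the P5 to P7 calls. P5 and P7 libraries differed in their slope with transcript length, as given above, and with that slope as a covariate (an alternative added after the data were seen) none of the 7 genes passed. Of all genes 0.00709% passed there, and the log2 differences themselves became larger, 2.20 for Cyp2c29, 1.87 for Cyp2c55, 1.22 for Cyp2c50 and 0.40 for Cyp2c37. From P7 to P14 the same covariate left 4 calls, where 23.4% of all genes passed with it: Cyp2c29, Cyp2c54, Cyp2c55 and Cyp2c70, and Cyp2c37 and Cyp2c68 were lost at limma adjusted p-values of 0.0766 and 0.36. Leaving out P7 scrambled replicates 2 and 3 left a single library in that group, so only sizes are given. From P7 to P14 the log2 differences were 3.84 for Cyp2c29, 2.92 for Cyp2c55, 0.66 for Cyp2c70, 0.33 for Cyp2c37, 0.29 for Cyp2c68 and -1.99 for Cyp2c54. From P5 to P7 they were 2.20 for Cyp2c29, 1.34 for Cyp2c55, 0.80 for Cyp2c50 and 0.27 for Cyp2c37. Mimic livers alone, which leave out all P7 scrambled libraries, were looked at as well after the data were seen. From P7 to P14 they kept 5 of the 6 calls, where 29.5% of all genes passed, and Cyp2c68 was lost (limma adjusted p 0.146). From P5 to P7 they kept 3 of the 4, where 10% of all genes passed, and Cyp2c37 was lost (limma adjusted p 0.0901). The kept calls of Cyp2c54 from P7 to P14 and of Cyp2c55 from P5 to P7 include the low mimic values by which these genes were chosen. For those calls the mimic livers are no independent check.

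The mimic comparisons use the same fit within a day, and the plot of the 3 days shows them side by side. P7 is tested here because no value of that day is known to have been used in choosing the genes, though this cannot be settled from the sources. None of the 7 passed at P7, where 0.00709% of all genes passed, a single gene that is one of the muscle markers (Ttn). One of the 7 (Cyp2c29) had an unadjusted p under 0.05, as had 7.61% of all genes. Differences at P5 and P14 are given below as sizes with no test. At P14, 4 of the 7 genes (Cyp2c37, Cyp2c50, Cyp2c54 and Cyp2c55) had all mimic livers below all scrambled livers, as had 4.35% of all genes. So had 2 of the 4 other Cyp2c genes, Cyp2c44 and Cyp2c67. The 7 were chosen with P14 mimic values in view, and Cyp2c37, Cyp2c50 and Cyp2c54 may share reads. No excess over all genes is therefore read from this count. At P7, Cyp2c70 alone was separated, with all mimic livers higher, as in 6.52% of all genes. At P5 no gene of the 7 was separated, with 2.89% of all genes separated higher and 2.12% lower.

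**Figure D3:**
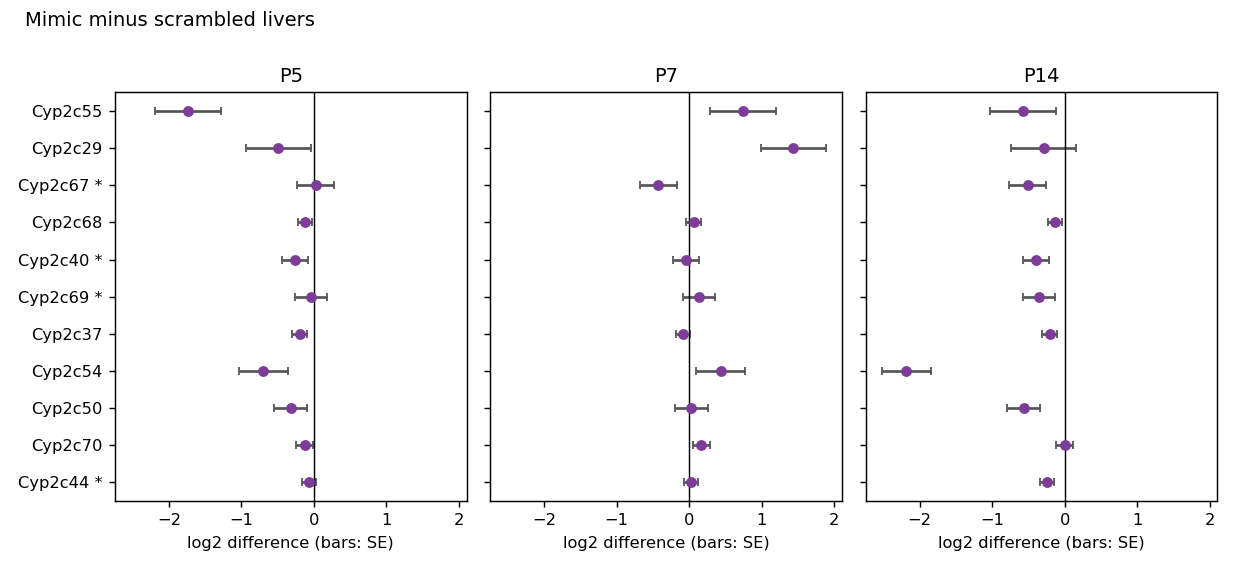
Log2 difference of mimic minus scrambled livers on the log2(scaled count + 1) scale (horizontal axes, bars give the SE, 3 livers a group) for the 11 tested Cyp2c genes in chromosome order (asterisks: the 4 genes outside the 9) at P5, P7 and P14. Cyp2c54 at P14 lies farthest from 0, at -2.18, followed by Cyp2c55 at P5, at -1.73.

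Cyp2c29, an epoxygenase of arachidonic acid and one of the CAR-responsive genes of mouse liver, changed most with age. It had 14, 13 and 7 scaled counts in the P5 mimic livers, against 11, 25 and 14 in the P5 scrambled livers. At P7 it had 72, 101 and 41 in mimic livers, against 61, 22 and 10 in scrambled livers. Mimic livers at P14 had 791, 933 and 809, against 1013, 1156 and 928 in scrambled livers at P14. Every P14 liver lay above every P7 liver, and mimic and scrambled livers overlapped at each day. The rise from P7 to P14 was 18.3-fold in mean scaled counts, or 4.50 in log2 units (SE 0.32, limma adjusted p 3.08e-09). From P5 to P7 it gained 1.55 in log2 units (SE 0.32, limma adjusted p 0.0044). Taken apart by injection the gain was 2.51 in mimic livers (limma adjusted p 0.00762) and 0.58 in scrambled livers (limma adjusted p 0.43), where 10% of all genes passed in mimic livers and 0% in scrambled livers (23.1% there at an unadjusted p under 0.05).

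At P7, Cyp2c29 was 1.44 higher in mimic than in scrambled livers on the log2 scale (SE 0.45, limma adjusted p 0.352), which did not pass. Scrambled replicate 1, at 61, held the most muscle transcripts, while replicates 2 and 3, at 22 and 10, held the gut gene Sis. Without P7 scrambled replicate 1 the difference was 2.09 and passed (limma adjusted p 0.0391). Without replicates 2 and 3 it was 0.13, with a single scrambled library left, the one of highest muscle sum, so only the size is given. The part of those transcripts in the result was not tested.

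Cyp2c38 and Cyp2c39, the closest relatives of Cyp2c29, were low. Cyp2c39 was near the limit of detection at P5 and P7, and Cyp2c38 at every day. Cyp2c38 was at 0 in 11 of the 18 libraries and never above 2, and a value of 0 allows 3 reads, or up to 4.24 scaled counts in the library with fewest reads. Cyp2c39, known as a retinoic acid hydroxylase, had 3, 3 and 1 in P5 mimic livers, against 2, 0 and 2 in P5 scrambled livers. It had 3, 4 and 2 in P7 mimic livers, against 1, 0 and 4 in P7 scrambled livers. Mimic livers at P14 had 6, 12 and 4, against 19, 21 and 12 in scrambled livers at P14. The P14 groups met at 12, and the P14 livers met the P7 livers at 4. The mean of Cyp2c39 rose 5.29-fold from P7 to P14. Below the mean filter it was not tested, and without that filter it passed, where 22.4% of all genes did.

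Cyp2c55, an enzyme best known from the mouse intestine that hydroxylates arachidonic acid, had 5, 6 and 7 in P5 mimic livers, against 7, 34 and 43 in P5 scrambled livers. The P7 mimic livers had 46, 38 and 33, against 25, 36 and 13 in the P7 scrambled livers. The P14 mimic livers had 197, 242 and 164, against 257, 376 and 270 in the P14 scrambled livers. One P5 scrambled liver met the mimic range at 7, the P7 groups overlapped, and at P14 all mimic livers were lower. From P7 to P14 it rose 7.88-fold, or by 2.99 in log2 units (SE 0.32, limma adjusted p 6.54e-07), and from P5 to P7 the difference was 1.28 (SE 0.32). That second difference was 2.51 in mimic livers and 0.04 in scrambled livers. It includes the low P5 mimic values by which the gene was chosen, so no p is given for it here. The mimic minus scrambled difference was -1.73 at P5 (SE 0.46), 0.74 at P7 (SE 0.46, limma adjusted p 0.781) and -0.58 at P14 (SE 0.46). The 5 gut markers were looked at beside it. Cdx2, Cdx1 and Sis were at 0 in all livers at P5, in the P7 mimic livers and in all P14 livers but scrambled replicate 3, where Cdx1 was 1. In the P7 scrambled livers Cdx2 was 0, 2 and 12, Cdx1 was 0, 0 and 5, and Sis was 0, 2 and 21. Fabp2 and Lgals4 were above 0 in every library, and the sum of all 5 was 418 to 440 in P5 mimic and 364 to 499 in P5 scrambled livers, 346 to 435 in P7 mimic and 403 to 462 in P7 scrambled livers, and 458 to 566 in P14 mimic and 440 to 467 in P14 scrambled livers. The part of gut cells in these values was not tested.

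**Figure D4:**
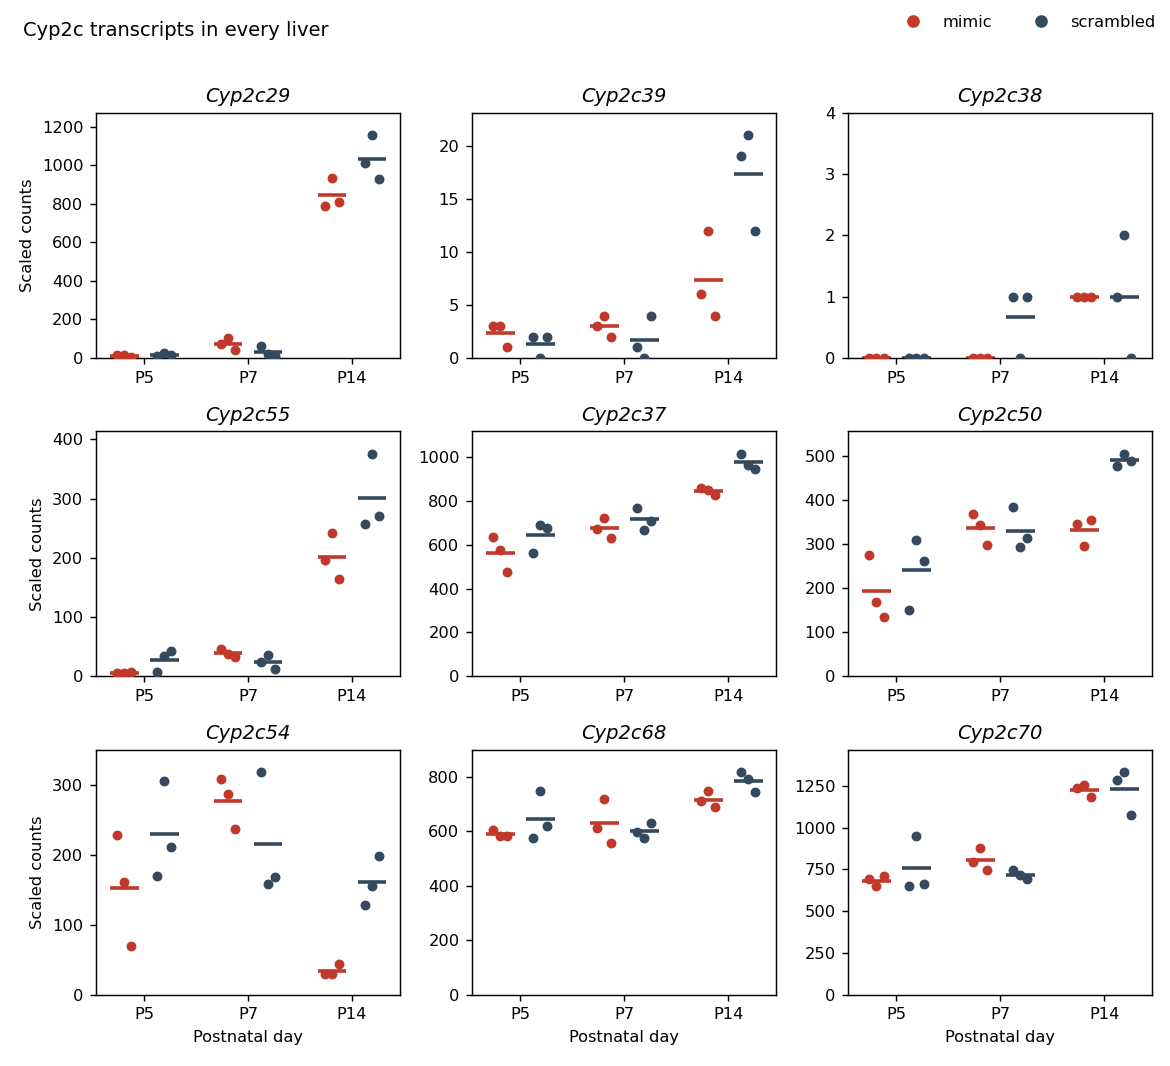
Scaled counts (vertical axes, each from 0 and with its own range) of the 9 genes in every liver by postnatal day (horizontal axis), mimic in red left of scrambled in blue-grey, with points for the 3 libraries of a group and bars for their mean. Cyp2c29 and Cyp2c55 climb at P14, Cyp2c54 is lowest in the P14 mimic livers at 30 to 44, and Cyp2c68 and Cyp2c70 overlap between injections at P14.

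Cyp2c37, which in mouse makes a hydroxylated arachidonic acid, was the strongest of its group of 3 close relatives. It had 635, 578 and 476 scaled counts in P5 mimic livers, against 563, 688 and 677 in P5 scrambled livers. Counts at P7 were 673, 720 and 630 in mimic livers, against 768, 669 and 710 in scrambled livers. Counts at P14 were 858, 850 and 826 in mimic livers, against 1015, 964 and 946 in scrambled livers. Groups overlapped at P5 and P7, and at P14 the mimic livers were all lower, by 0.21 on the log2 scale (SE 0.10). It rose by 0.39 from P7 to P14 (SE 0.07, limma adjusted p 0.000257). The difference of 0.21 from P5 to P7 (SE 0.07, limma adjusted p 0.0354) was near the threshold. It was lost without P5 mimic replicate 3 (0.16, limma adjusted p 0.113), P5 scrambled replicate 1 (0.17), P7 mimic replicate 1 or 2 (0.21 and 0.19) or P7 scrambled replicate 1 (0.19). Settings that lost it too were no mean filter (limma adjusted p 0.0712), quantile normalization (0.108), a fit of only the libraries compared (0.0684) and no mean-variance trend (0.0566).

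Cyp2c50, which forms epoxides of arachidonic acid in mouse, rose between P5 and P7. It had 276, 169 and 136 in P5 mimic livers, against 151, 309 and 263 in P5 scrambled livers. At P7 it had 370, 344 and 299 in mimic livers, against 386, 294 and 314 in scrambled livers. At P14 it had 346, 297 and 356 in mimic livers, against 478, 506 and 489 in scrambled livers. The rise from P5 to P7 was 0.68 (SE 0.16, limma adjusted p 0.00751). The later difference of 0.28 did not pass (SE 0.16, limma adjusted p 0.157) and was -0.02 in mimic and 0.58 in scrambled livers. It passed in a fit of only the libraries compared (limma adjusted p 0.0103), and turned to -0.19 with the length slope as a covariate (limma adjusted p 0.496). At P14 the groups were apart, with the mimic livers 0.56 lower on the log2 scale (SE 0.23).

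Cyp2c54, also an arachidonic acid epoxygenase, was the only one of the 9 genes whose mean was lower at P14 than at P7. It had 229, 161 and 70 in P5 mimic livers, against 170, 307 and 212 in P5 scrambled livers. Mimic livers at P7 had 309, 288 and 238, against 319, 159 and 169 in scrambled livers at P7. Mimic livers at P14 had 30, 30 and 44, against 128, 156 and 199 in scrambled livers at P14. The P14 groups do not overlap, and the P14 mimic livers lie below every liver of P5 and P7, while the P14 scrambled livers lie within the range of those days. Averaged over both injections the difference from P7 to P14 was -1.68 (SE 0.24). That value includes the low mimic livers by which the gene was chosen, so no p is given for it here. The difference was -2.98 in mimic livers, while scrambled livers gave -0.37 (SE 0.34, limma adjusted p 0.421) and did not pass, where 33.8% of all genes did.

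The mimic minus scrambled difference of Cyp2c54 was -0.69 at P5 (SE 0.34), 0.43 at P7 (SE 0.34, limma adjusted p 0.88) and -2.18 at P14 (SE 0.34). The P7 value turned to -0.20 without P7 scrambled replicates 2 and 3. Pups at P14 were of both sexes, by Ddx3y: livers with 697 to 1065 were mimic replicates 1 and 2, with Cyp2c54 at 30 and 30, and scrambled replicate 1, at 128. Livers with at most 5 were mimic replicate 3, at 44, and scrambled replicates 2 and 3, at 156 and 199. With Y-linked genes as a covariate the mimic minus scrambled difference at P14 was -2.05, and with 1 or 2 livers of a sex in a group no more is read from this. The 4 red cell markers summed to 901 to 1143 in P14 mimic livers and 630 to 840 in P14 scrambled livers, and the 6 hepatocyte markers to 11163 to 13975 in mimic and 12988 to 15067 in scrambled livers. Their part in the P14 differences was not tested.

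Reads assigned to one gene of the group in place of another do not change the sum of Cyp2c37, Cyp2c50 and Cyp2c54. Reads left out for matching several places would lower it and could shift the shares, and how they were counted is not known here. The sum was 1177 to 1234 in P14 mimic livers and 1621 to 1634 in P14 scrambled livers. Cyp2c54 made up 2.43% to 3.59% of it in mimic livers and 7.90% to 12.2% in scrambled livers at P14. At P7 its share was 20.4% to 22.9% in mimic and 14.2% to 21.7% in scrambled livers, and at P5 it was 10.3% to 20.1% in mimic and 18.4% to 23.5% in scrambled livers. The lowest P5 share, 10.3%, came from mimic replicate 3, the library with both Xist and Y-linked transcripts. All P14 livers, mimic and scrambled, had a smaller share than every P5 and P7 liver but that one, and the P14 mimic livers were below that one too. The P14 mimic sums and shares include the low Cyp2c54 values by which that gene was chosen, so they are a description only.

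**Figure D5:**
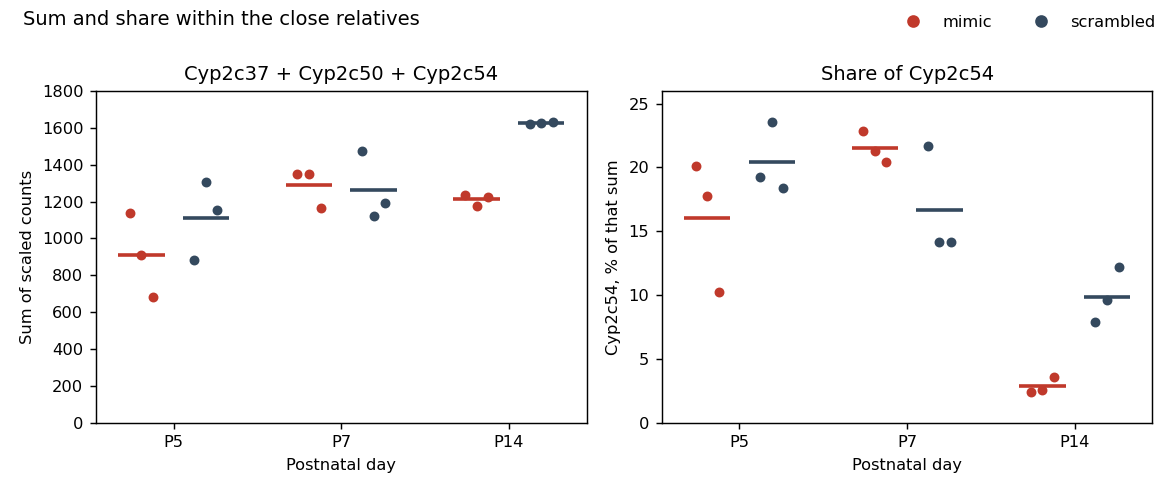
Left, the sum of scaled counts of Cyp2c37, Cyp2c50 and Cyp2c54 and, right, the percent of that sum held by Cyp2c54 (vertical axes), in every liver by postnatal day (horizontal axes), mimic in red left of scrambled in blue-grey, with bars for group means. At P14 the sums are 1177 to 1234 in mimic and 1621 to 1634 in scrambled livers, and the Cyp2c54 shares do not overlap.

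Cyp2c68 kept to a narrow range, 557 to 816 scaled counts over the 18 livers, and whether high levels were flattened was not tested. It had 603, 582 and 581 in P5 mimic livers, against 574, 747 and 617 in P5 scrambled livers. The P7 mimic livers had 610, 718 and 557, against 596, 575 and 628 in the P7 scrambled livers. The P14 mimic livers had 710, 746 and 688, against 816, 792 and 744 in the P14 scrambled livers. Mimic and scrambled livers overlapped at every day. Its difference was -0.01 from P5 to P7 (SE 0.07, limma adjusted p 0.954) and 0.29 from P7 to P14 (SE 0.07, limma adjusted p 0.00243). Among its near-identical relatives Cyp2c69 rose by 0.58 from P7 to P14 (limma adjusted p 0.00484). That call was lost with the length slope as a covariate (0.40, limma adjusted p 0.23). Without P7 scrambled replicates 2 and 3, which left a single library in that group, the rise was 0.46. Cyp2c40 and Cyp2c67 did not pass with all libraries, at 0.05 and 0.03. As reads may be shared among these 4 genes, their sum was also taken: it was 1344 to 1626 in P14 mimic livers and 1667 to 1877 in P14 scrambled livers, against 1043 to 1548 and 1183 to 1390 in P7 mimic and P7 scrambled livers.

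Cyp2c70, the enzyme that makes muricholic acids, the bile acids typical of mice, had the highest mean of the 9 per length in every group. That order holds for the transcript with the longest coding sequence, and it was not tested over merged exons, where Cyp2c70 is lower per kb. In scrambled livers Cyp2c70 overlapped with the next of the 9 at each day: Cyp2c68 at P5, Cyp2c37 at P7 and Cyp2c29 at P14. It had 690, 650 and 709 in P5 mimic livers, against 651, 952 and 665 in P5 scrambled livers. Counts at P7 were 795, 878 and 748 in mimic livers, against 744, 719 and 691 in scrambled livers. Counts at P14 were 1240, 1253 and 1183 in mimic livers, against 1286, 1332 and 1073 in scrambled livers. From P7 to P14 it rose 1.61-fold, or by 0.69 in log2 units (SE 0.08, limma adjusted p 2.76e-06), against 0.09 from P5 to P7 (SE 0.08, limma adjusted p 0.423). The P7 groups were apart by 0.17 on the log2 scale (SE 0.12, limma adjusted p 0.854), which did not pass, and the P14 difference was 0.00 (SE 0.12). At up to 0.760 estimated reads per base of transcript, Cyp2c70 lies among densely covered transcripts, and the sources used here do not say how duplicate reads were treated.

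Genes that could work with or control these enzymes were counted in the P7 to P14 comparison, in which 24% of all genes passed higher and 26.3% lower. Of 5 partners of P450 enzymes, 2 rose: Cyb5a (0.23, limma adjusted p 0.0372), a cytochrome b5, and Pgrmc1 (0.24, limma adjusted p 0.0151), a heme-binding partner, while Por was at 0.15 (limma adjusted p 0.0533). Of 15 regulators, 4 rose and 1 fell. Those that rose included the CAR gene Nr1i3 (0.30, limma adjusted p 0.0116), Cebpb (0.53, limma adjusted p 0.000335) and Foxa2 (0.41, limma adjusted p 0.00143), and Onecut1, a hepatocyte transcription factor, fell by 1.54 (limma adjusted p 0.00632). From P5 to P7, 9 of the 15 rose, where 13.7% of all genes passed higher, Hnf4a by 0.31 (limma adjusted p 0.00857) and Onecut1 by 1.58 (limma adjusted p 0.0138) among them, in the comparison that kept 0.00709% of all genes with the length slope as a covariate. Median log2 differences of the regulators were 0.13 from P7 to P14 and 0.35 from P5 to P7.

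Among 10 targets of CAR and its relative PXR, 5 rose and 1 fell from P7 to P14, beside 24% and 26.3% of all genes. Cyp2b13 rose by 1.33 (limma adjusted p 3.46e-06) and the retinal dehydrogenase gene Aldh1a1 by 0.95 (limma adjusted p 7.5e-05), and the transporter gene Abcc3 fell by 0.51 (limma adjusted p 0.000631). Of 14 pericentral genes, those strongest near the central vein, 11 rose and none fell, with Slc1a2 at 2.46 (limma adjusted p 9.16e-07), Cyp2a5 at 1.03 (limma adjusted p 4.66e-05) and Oat at 0.75 (limma adjusted p 3.12e-07). Of 9 growth hormone genes, 6 rose and none fell, including Igf1 (0.59, limma adjusted p 1.86e-05) and Bcl6 (1.30, limma adjusted p 0.000112). Of 13 other genes of arachidonate and epoxide metabolism 9 were tested, of which 3 rose and 2 fell, with Cyp2j6 up by 0.49 (limma adjusted p 0.000425) and the phospholipase gene Pla2g4a down, at -1.27 (limma adjusted p 0.00011). Of the 15 other genes within 500 kb of the cluster 9 were tested, of which 1 rose and 4 fell. No gene of these lists passed in a mimic comparison at any day, where 0% of all genes passed at P5, 0.00709% at P7 and 0.0213% at P14. Of the 71 tested, 2 at P5, 11 at P7 and 7 at P14 had an unadjusted p under 0.05, beside 1.89%, 7.61% and 5.41% of all genes on those days.

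Genes whose 18 values most resembled those of a member were found by the root mean square difference of log2 values, each gene centred on its own mean, over 14092 genes. Cyp2c55 was closest to the transporter gene Slc22a29 (0.73). Cyp2c68 was nearest to Sult1a1, a sulfotransferase gene (0.05), Cyp2c70 to Gstk1, a glutathione transferase gene (0.10), and Cyp2c37 to Sgpp1, a phosphatase gene of sphingosine phosphate (0.12). Cyp2c68, Cyp2c70 and Cyp2c37 themselves varied by only 0.18, 0.38 and 0.28, and whether high levels were flattened was not tested. Cyp2c54 had no close match: its nearest gene, Slc4a9, differed by 0.66 where Cyp2c54 itself varies by 1.06, and its relative Cyp2c50 differed by 1.13. Closest to Cyp2c50 was Prdm9 (0.31), a gene of low level here with a mean of 51.3 in mimic and 56.3 in scrambled livers at P14.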

How the data were processed

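Liver RNA was sequenced as stranded mRNA libraries, as the labels' protocols state. Each value of the deposited table is a whole-number score, called a scaled count here: a gene count that the authors divided by a size factor and rounded, judged from the values. Per the submitters' processing notes, the tools were DESeq2 1.26.0, featureCounts 1.6.5, Picard 2.21.7, STAR 2.6.1d and Trimmomatic 0.39, with mm10 (GRCm38). As these are not raw counts, no count model was fitted. What 1 read was worth, 0.785 to 1.413 scaled counts, was estimated from gaps and doublings among low whole numbers.

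Groups came from the sample titles. In limma 3.58.1 (R 4.3.3), log2(value + 1) of the 14104 genes whose mean over 18 libraries reached 10 (of 31165) was fitted with 6 group means, 12 residual degrees of freedom and a mean-variance trend. Benjamini-Hochberg adjustment ran over all 14104. The log scale understates changes of low genes. The 9 genes, the lists and the tests were chosen with earlier results of these data known. Named genes are all Cyp2c genes, up to 4 per list by smallest p from P7 to P14, and the genes of closest profile, which are not reported here for every member. Por, Hnf4a and the P5 to P7 values of listed genes were added after their values were seen.

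Transcript lengths, coding sequences and 3′ UTRs came from GENCODE on the same build, where 31108 of the gene IDs were found and 24389 had identical coordinates. Promoters and the microRNA came from RefSeq. Same-numbered mimic and scrambled libraries did not deviate together, so the numbers were not taken as pairs. Alternative settings were pseudocount 5, an unfiltered table, a minimum mean of 50, other scalings, a fit of only the libraries compared, no trend, the replicate block, a Y-linked covariate, and each library left out. The slope with length as a covariate, leaving out P7 scrambled replicates 2 and 3 together, and mimic livers only, were added after seeing the data. The limma script was checked on simulated data. Other tools were Biopython 1.88, the R package data.table (version 1.17.8), matplotlib 3.10.9, pandas 2.3.3, numpy 2.4.6 and Python 3.11.15.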

Additional observations from a re-analysis of the deposited data

Results flagged for a closer look

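Within the 6 livers of a day, a single liver far from the others was looked for in the 7 tested genes, 21 sets of 6 in all. A set counts where the gap to the nearest liver exceeds 0.625 of the whole range, which chance alone gives in about 1 set in 20. Both sets found had the same liver, P5 scrambled replicate 2. It had 747 scaled counts of Cyp2c68, where the other P5 livers lay between 574 and 617, a gap of 0.751 of the range. It had 952 of Cyp2c70, where the others lay between 650 and 709, a gap of 0.805. This library had the fewest reads assigned to genes, 3006600, and the lowest rank correlation with transcript length, -0.352, and the part of either in these values was not tested.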

How the results depend on the processing

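Values for the age comparisons and for mimic against scrambled at P7 are the number of the 7 tested genes that passed. With each library left out in turn it was 3 to 4 from P5 to P7, 6 to 6 from P7 to P14 and 0 to 1 at P7, beside 4, 6 and 0 with all libraries. Of all genes 14.1% to 36%, 44.3% to 52.6% and 0% to 0.0922% passed over the libraries left out. With all libraries 26.9%, 50.3% and 0.00709% passed. The call at P7 was Cyp2c29 without scrambled replicate 1. Those counts over the libraries left out include Cyp2c55 from P5 to P7 and Cyp2c54 from P7 to P14. Both calls hold the low mimic values by which these genes were chosen, so the counts are no independent check of them. With the slope with length as a covariate the P5 to P7 count was 0, where 0.00709% of all genes passed. In mimic livers only the counts were 3 from P5 to P7 and 5 from P7 to P14, where 10% and 29.5% of all genes passed. The cause was not tested. The P7 to P14 count became 7 without the mean filter, where Cyp2c39 passed too, and in a fit of only the libraries compared, where Cyp2c50 did. Of all genes 22.4% passed without the filter and 51.7% in the fit of only the libraries compared. With no test, the P5 difference of Cyp2c55 was -2.50 to -1.27 and the P14 difference of Cyp2c54 was -2.36 to -2.02 over the libraries left out. The replicate number as a block gave the same values, 4, 6, 0, -1.73 and -2.18, and same-numbered libraries correlated between -0.234 and 0.244. With that block 25.7% of all genes passed from P5 to P7, 49.7% from P7 to P14 and 0.0213% at P7.

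No value that passed changed sign, but the following values, which did not pass, did. With the length slope, the P5 to P7 difference was 0.20 for Cyp2c68 and 0.19 for Cyp2c69, and from P7 to P14 it was -0.14 for Cyp2c67, -0.050 for Cyp2c40 and -0.19 for Cyp2c50. In mimic livers only it was 0.086 and 0.066 for Cyp2c68 and Cyp2c69 from P5 to P7, and -0.015, -0.13 and -0.019 for Cyp2c67, Cyp2c40 and Cyp2c50 from P7 to P14. Without P7 scrambled replicates 2 and 3, Cyp2c69 was at 0.11 from P5 to P7 and Cyp2c67 at -0.25 from P7 to P14, and at P7 the mimic difference was -0.12 for Cyp2c69, -0.20 for Cyp2c54, -0.20 for Cyp2c50 and -0.018 for Cyp2c44. At P7 it was 0.00434 for Cyp2c40 with TMM scaling and -0.030 for Cyp2c44 with quantile normalization. Over single libraries left out, differences from P5 to P7 ran from -0.057 to 0.048 for Cyp2c68 and -0.12 to 0.12 for Cyp2c69. From P7 to P14 they ran from -0.094 to 0.17 for Cyp2c67 and -0.047 to 0.12 for Cyp2c40. At P7 they ran from -0.040 to 0.14 for Cyp2c68, -0.19 to 0.14 for Cyp2c40, -0.057 to 0.36 for Cyp2c69, -0.050 to 0.15 for Cyp2c50 and -0.022 to 0.066 for Cyp2c44.

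Precision is limited by 3 libraries a group and by reads that match several near-identical genes. At 3006600 to 5319600 reads a library, Cyp2c38 was at the limit of detection.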

Other observations

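Cyp2b10, the standard CAR target of mouse liver, was looked at after its values were seen. It had 50, 46 and 95 scaled counts in P7 mimic livers, against 43, 20 and 7 in P7 scrambled livers, and 38, 107 and 50 in P14 mimic livers, against 128, 220 and 114 in P14 scrambled livers. The groups did not overlap at either day, higher with the mimic at P7, as in 6.52% of all genes, and lower at P14, as in 4.35%. Neither difference passed (limma adjusted p 0.458 and 0.904), where 0.00709% and 0.0213% of all genes did. Transcripts of other organs were found in the P7 scrambled libraries, with muscle sums of 1191, 18 and 328 in replicates 1, 2 and 3, and their part was not tested.

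Cyp2c44, outside the cluster and with no close relative, had 715, 745 and 790 in P14 mimic livers, against 919, 894 and 859 in P14 scrambled livers, and the groups overlapped at P5 and P7. Over all 13 Cyp2c genes the scaled counts summed to 5528 to 5989 in P14 mimic livers and 6478 to 7284 in P14 scrambled livers. At P7 the sums overlapped, at 3897 to 4873 in mimic and 4010 to 4621 in scrambled livers.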
